A study of Mus musculus with 2 samples.

Results

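The genes described here are 8 protease inhibitor genes of mouse B cells: the clade A serpins Serpina3g and Serpina3f, the clade B serpins Serpinb9, Serpinb1a and Serpinb6a, the WAP-domain genes Slpi and Wfdc21, and the cystatin Cstb. They were chosen by gene family and by the ratios of these same arrays, in which Serpina3g, Serpina3f and Slpi were higher and Wfdc21 was lower in the Ccr7 knock-out. Their ratios of knock-out over wild-type are therefore given as a description, with no test. All 8 were among the 17683 genes that passed the filter on dim probes, and they were covered by 14 probes, of which 12 passed it.

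The tested mice were of the strain B6.129P2(C)-Ccr7tm1Rfor/J, which lacks a functional Ccr7 gene, and the comparison mice were wild-type C57BL/6J. B cells were sorted from their peripheral lymph nodes by flow cytometry and went into RNA isolation without culture, and the age of the mice is not used here. RNA of 6 sorted samples per genotype was combined in pools of 3, so that each of 2 two-colour arrays compared a knock-out pool with a wild-type pool, with the knock-out in Cy5 on array 1 and in Cy3 on array 2. The array is the replicate (n = 2), and a spread between 2 arrays holds both the pool difference and any dye effect. Pooled RNA of a sorted population cannot separate more transcript per cell from more cells that carry it.

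Serpins are single-use inhibitors: the protease cuts an exposed loop of the serpin and is trapped in a covalent complex. Clade A serpins are mostly secreted, although Serpina3g acts inside the cell, while clade B serpins stay inside the cell and shield it from its own or its neighbours' proteases. WAP-domain proteins are small secreted proteins held together by disulphide bonds, and several of them inhibit serine proteases of neutrophils. Cystatins such as the product of Cstb block cysteine cathepsins.

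The probes that carry the differences are 60 bases long, and their first 30 bases are shown here, 5′ to 3′, because each of the following ratios is a property of one such oligonucleotide. Positions are those of the array files on mm8.
Serpina3g, chr12:104642885-104642944, plus strand: tgtctcttgttgaccaactacgtaggactg
Serpina3f probe 1, chr12:104621804-104621863, plus strand: tatacaagtttacaggccaacccataaggt
Serpina3f probe 2, chr12:104621405-104621464, plus strand: cacaaacactcatattgccctctttatggc
Slpi probe 1, chr2:164045554-164045613, minus strand: ttactgttttaccactaacatctccttttg
Wfdc21, chr11:83568721-83568780, plus strand: gagctctgtgaccaagaaaacagttgaaaa
None of these 5 probes shared a run of 16 or more bases with a probe of another gene on the array, on either strand. Serpina3f and Serpina3g lie side by side on chromosome 12 among related Serpina3 genes, and transcripts were not compared with the probes here, so a contribution from near-identical copies to their signal was not tested.

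Both Serpina3 genes gave more signal in the knock-out pools of both arrays. Serpina3g, a serpin of the cytosol that inhibits lysosomal cathepsins and is induced in activated lymphocytes, had normalized log2 intensities of 15.93 on array 1 and 15.75 on array 2 in knock-out B cells, against 14.41 and 14.42 in wild-type B cells. The wild-type pools were nearly equal and both lay below both knock-out pools. Its log2 ratios, knock-out over wild-type, were 1.52 for array 1 and 1.32 for array 2. They averaged 1.42 ± 0.14 (SD, n = 2), a level 2.68-fold higher. It was the 7th highest mean ratio of 17683 genes. The spot was bright enough to be read from the low-gain scan and scaled up in both channels of both arrays. The agreement of the arrays rested on normalization within each array: with none, array 2 gave -0.08 while array 1 gave 1.94, and the mean was 0.93.

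Serpina3f, the adjacent paralogue, was dimmer and was not scaled up. Its brighter probe had log2 intensities of 10.33 and 9.88 in knock-out pools, against 9.15 and 8.80 in wild-type pools, with no overlap. Its log2 ratios were 1.18 and 1.09, with a mean of 1.13 ± 0.07 (SD, n = 2), a 2.19-fold difference. The second probe, which lies closer to the start of the transcribed strand, had 9.97 and 9.92 in knock-out pools and 8.85 and 8.61 in wild-type pools. Its log2 ratios of 1.12 and 1.30 averaged 1.21, so both oligonucleotides of this gene gave more than 2-fold on each array. With no normalization within the array the mean of the brighter probe was 0.71, from 1.26 and 0.15 on the arrays. Median centring gave 1.22 on array 1 and 0.63 on array 2.

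**Figure D1:**
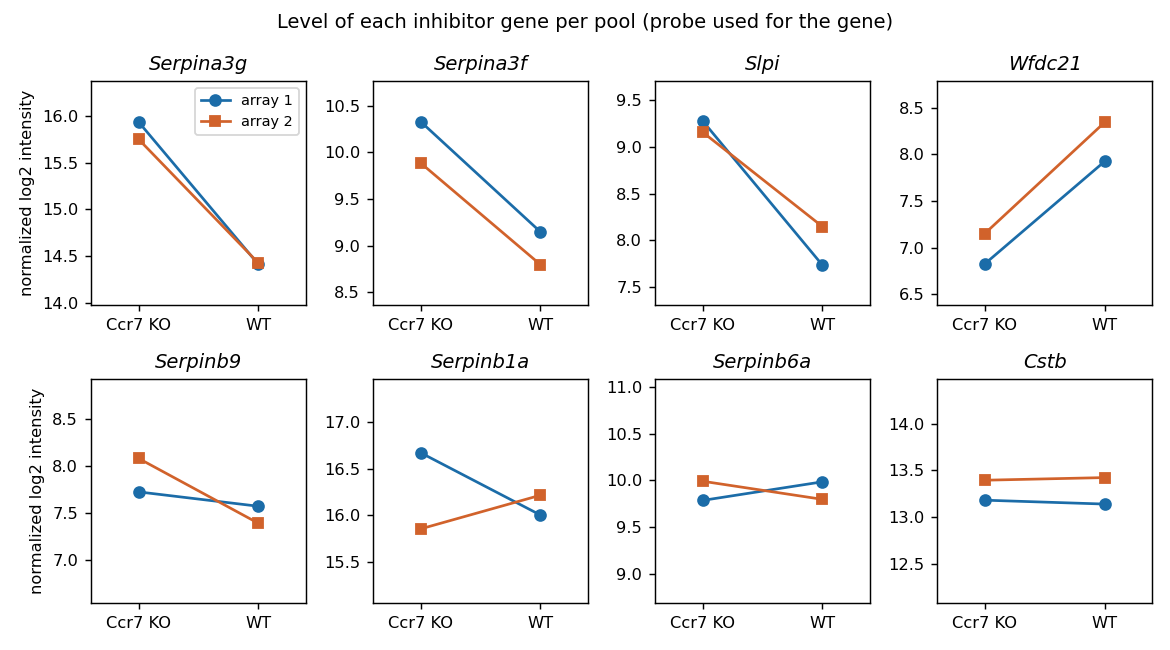
Normalized log2 intensity (vertical axis) of the probe used for each gene in the Ccr7 knock-out (KO) and wild-type (WT) pools, with 1 line per array and the same span of the vertical axis in each panel. Serpina3g, Serpina3f and Slpi lie higher in both knock-out pools than in both wild-type pools, Wfdc21 lies lower, and the pools of Serpinb1a, Serpinb6a and Cstb overlap between genotypes.

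The sequences upstream of the transcription starts of these paralogues are shown because both genes had high ratios on both arrays. The 250 bases before the RefSeq start are printed on GRCm38.p6 for the first annotated start of Serpina3f (chr12:104214294-104214543, plus strand) and for Serpina3g (chr12:104235897-104236146, plus strand). Capitals mark matches, on either strand, to TTCNNNGAA (a core of STAT sites), the kB consensus of NF-kB or TATAAA. No 2 matches overlap in these windows.
Serpina3g: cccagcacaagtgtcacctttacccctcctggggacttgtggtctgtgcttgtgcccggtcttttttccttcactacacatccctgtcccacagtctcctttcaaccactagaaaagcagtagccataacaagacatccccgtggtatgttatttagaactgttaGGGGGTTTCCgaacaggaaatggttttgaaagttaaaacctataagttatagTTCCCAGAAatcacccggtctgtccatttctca
Serpina3f: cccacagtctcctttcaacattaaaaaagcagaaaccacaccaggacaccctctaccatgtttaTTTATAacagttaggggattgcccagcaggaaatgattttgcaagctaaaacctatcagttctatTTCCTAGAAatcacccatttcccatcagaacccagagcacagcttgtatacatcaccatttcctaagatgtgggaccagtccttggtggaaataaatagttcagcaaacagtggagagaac
The windows aligned over 152 bases, of which 82.9% were identical. TTCNNNGAA occurred in both, at the same place of the alignment, 33 to 25 bases before the start of Serpina3g and 121 to 113 bases before that of Serpina3f. Of 32851 RefSeq windows of the same length, 7.0% held this motif. That share is for single windows and does not apply to 2 windows that align with each other. The kB consensus occurred in the Serpina3g window, 85 to 76 bases before the start, and in 7.3% of all windows. The Serpina3f window held TATAAA on the minus strand, as did 12.4% of all windows on either strand. The Slpi and Serpinb9 windows held none of the 3 motifs, and of the windows of the 2 annotated Serpinb6a starts 1 held TTCNNNGAA. The motif set was changed after a first search: a core of IRF sites, which had matched the Serpinb9 window and 1 Serpinb6a window but neither printed one, was left out, and a narrower kB form was widened to the consensus. No window was searched for Serpinb1a, Wfdc21 or Cstb. A match is a run of letters and not a shown binding site.

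Slpi, a secreted inhibitor of neutrophil elastase and cathepsin G, was higher in the knock-out by its working probe. Probe 1 had log2 intensities of 9.28 and 9.16 in knock-out pools, against 7.73 and 8.15 in wild-type pools. After scaling, the knock-out values lay closer together than the wild-type values. Before correction the spots read 749 and 390 units in knock-out pools, against 254 and 340 in wild-type pools. Pool and dye both change between the arrays, so their parts in the array difference cannot be told apart. Array 1 gave a log2 ratio of 1.54 and array 2 one of 1.01, and their mean was 1.28 ± 0.38 (SD, n = 2), or 2.42-fold. With no normalization within the array, array 2 gave 0.17 and array 1 gave 1.64. Median centring gave 1.60 on array 1 and 0.65 on array 2. Probe 2 was not well above background in either genotype on either array, so its ratios of -0.03 and 0.22 do not measure the transcript. Its position on mm8 is 5154 bases from probe 1, which is more than the 2438 bases of the RefSeq Slpi gene. The Slpi difference thus comes from 1 oligonucleotide.

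Wfdc21, a small WAP-domain gene named 1100001G20Rik in the array files, went the other way. Its log2 intensities were 6.83 and 7.15 in knock-out pools, against 7.92 and 8.34 in wild-type pools. Both knock-out pools lay below both wild-type pools. The log2 ratios were -1.10 and -1.19, with a mean of -1.14 ± 0.07 (SD, n = 2), which is 2.21-fold lower and the 10th lowest of 17683 genes. The size depended on how background was treated, because the knock-out spots were dim. Before correction they read 143 and 120 units over local backgrounds of 61 and 46, against 281 and 363 units over 49 and 52 in the wild-type. The scanner program's log ratio, which subtracts background with no offset, gave -1.72 and -2.30, a mean of -2.01 or 4.02-fold lower. Normexp with an offset of 10 gave -1.50. The single Wfdc21 probe lies 15.4 Mb from the Ccr7 probe on chromosome 11, and the strain name gives a donor other than B6, so loss of Ccr7 and donor sequence near it cannot be told apart for this gene.

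Wfdc21 adjoins Wfdc18 on chromosome 11. Wfdc18 had log2 ratios of 0.07 and -0.47 on the arrays, and Wfdc17, another WAP-domain gene, had -0.16 and -0.73, with limma adjusted p of 0.817 and 0.476.

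**Figure D2:**
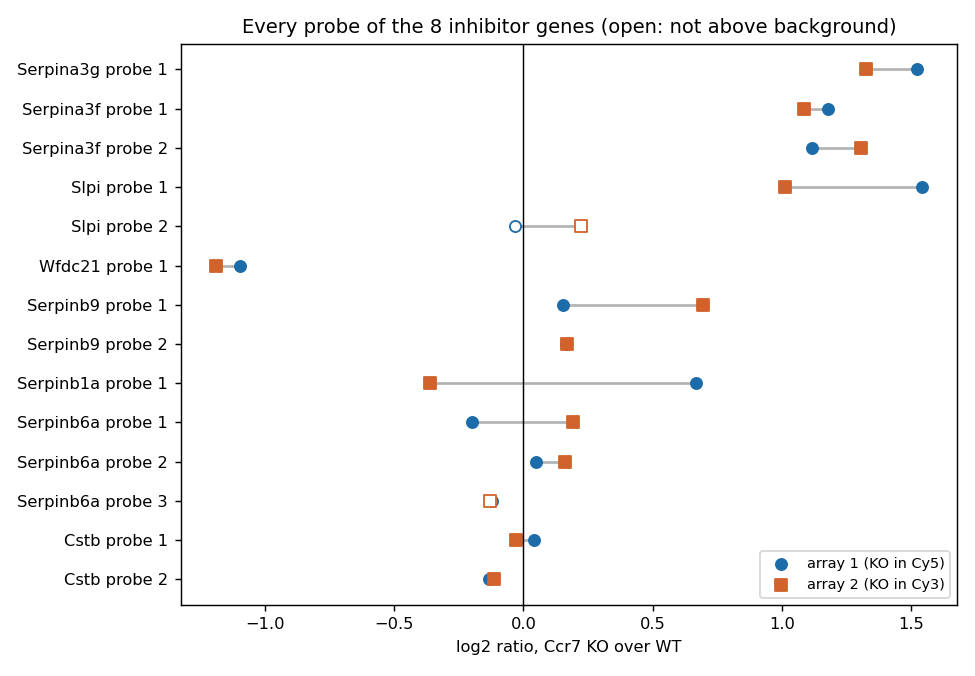
Log2 ratio (horizontal axis, knock-out over wild-type) for each of the 14 probes of the 8 genes, with array 1 as circles and array 2 as squares, and open symbols for the 2 probes that did not pass the filter. Both Serpina3f probes lie above 1 on both arrays, Slpi probe 2 lies near 0, and the arrays fall on opposite sides of 0 for Serpinb1a.

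The 3 clade B serpins differed less. Serpinb9, the intracellular inhibitor of granzyme B that protects lymphocytes from their own cytotoxic granules, had log2 intensities of 7.72 and 8.08 in knock-out pools, against 7.57 and 7.39 in wild-type pools. The genotypes did not overlap, but the log2 ratios of 0.15 (1.11-fold) and 0.69 (1.62-fold) lay apart, with a mean of 0.42 ± 0.38 (SD, n = 2). Its second probe gave 0.16 and 0.17, a mean of 0.17, on dim spots. Both probes were thus higher in the knock-out on both arrays, by 1.34-fold and 1.12-fold on average.

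Serpinb1a, an inhibitor of neutrophil elastase, cathepsin G and proteinase 3, was among the bright spots, with log2 intensities of 16.67 and 15.86 in knock-out pools and 16.003 and 16.22 in wild-type pools. The pools overlapped, and the ratios had opposite signs, 0.67 on array 1 and -0.36 on array 2 (mean 0.15 ± 0.73 SD, n = 2). Both of its channels were scaled up from the low-gain scan on both arrays. In the authors' deposited value table the same spot had log2 ratios of 0.03 and -0.21. The SD between arrays was larger than the mean, and the mean ran from -0.33 to 0.16 over the other processing settings.

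Serpinb6a, whose human counterpart inhibits cathepsin G, had log2 intensities of 9.78 and 9.99 in knock-out pools, against 9.98 and 9.80 in wild-type pools. Its ratios were -0.20 and 0.19, with a mean near 0 and an SD of 0.28. This probe shared a run of 18 bases with a probe of Rif1. Of its other probes, 1 gave 0.05 and 0.16 and shared a run of 21 bases with a probe of the neighbouring gene Nqo2, and 1 was not above background. The cystatin gene Cstb, an inhibitor of cathepsins in the cytosol, had 13.18 and 13.39 in knock-out pools and 13.14 and 13.42 in wild-type pools. Its ratios of 0.04 and -0.03 by the brighter probe and of -0.13 and -0.11 by the dimmer one lay near 0 on both arrays, and its pools overlapped.

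By the probe used for each gene, 4 of the 8 were higher on both arrays, 1 was lower on both and 3 had opposite signs. Over all 17683 genes, 24.2% were higher on both arrays, 30.0% were lower on both and 45.8% had opposite signs. The levels of the genotypes did not overlap for 5 of the 8 genes, against 22.9% of all genes. At least 1.5-fold on both arrays, 3 were higher (Serpina3g, Serpina3f and Slpi), as were 0.254% of all genes, and 1 was lower (Wfdc21), as were 0.368%. These counts follow from how the 8 were chosen and carry no test.

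**Figure D3:**
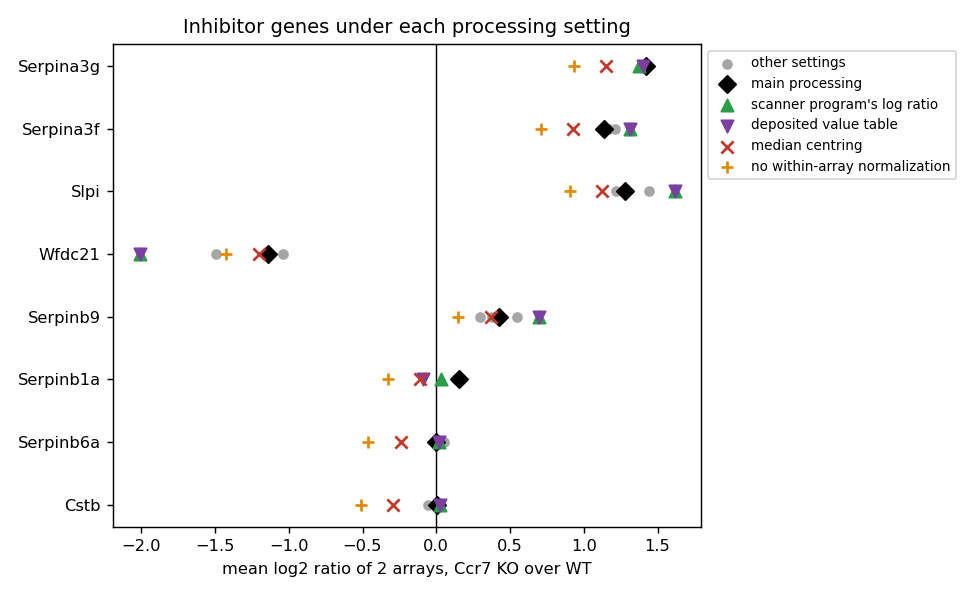
Mean log2 ratio (horizontal axis, knock-out over wild-type) of each gene under the main processing (diamond) and the other processing settings. Serpina3g, Serpina3f, Slpi and Serpinb9 stay above 0 and Wfdc21 stays below 0 in each setting shown, and the Wfdc21 values run from -2.01 to -1.04.

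Other genes of the inhibitor families were tested with limma over all genes. The genes described above were left out, among them Serpina3g, Serpina3f, Slpi and Wfdc21, which had been chosen partly by their ratios. The counts and the median of the remaining genes were therefore partly set by that choice. They do not describe the whole families. Of 118 listed, 100 were on the array and 45 passed the filter. None of the 45 passed an adjusted p of 0.05, where 0.102% of all genes did (18 of 17683), 0.0679% being higher and 0.0339% lower. At an unadjusted p of 0.05, 1 was higher and 3 were lower, against 9.12% of all genes in either direction. Their median log2 ratio was -0.01, as over all genes. Of the 45, 9 were higher on both arrays (24.2% of all genes), 12 lower on both (30.0%) and 24 of opposite sign (45.8%). Most of the 45 were dim, though some, such as Cst3, were bright. Serpina3b, Cst6 and Eppin, for example, had mean log2 intensities of 6.75, 6.82 and 6.66. Slpi probe 2, which was not well above background, averaged 6.41 in knock-out and 6.31 in wild-type pools. The normexp offset shrinks ratios of dim probes, so a ratio near 0 there does not show an unchanged transcript.

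Among clade A serpins, 6 genes were tested. Of the 9 listed Serpina3 genes other than Serpina3f and Serpina3g, 7 were on the array and 4 were tested, with 1 lower on both arrays, 3 of opposite sign and none higher on both. Serpina3j had the largest difference of the clade, with -0.11 and 1.02 on the arrays (mean 0.45, adjusted p 0.662 by limma). Serpina1d had a mean of -0.07 and Serpina3m 0.03. Serpina3f and Serpina3g were set apart partly by their ratios, and whether they differ from these relatives was not tested.

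Among 8 other clade B serpins, Serpinb6b, which adjoins Serpinb9 on chromosome 13, had 0.72 and 0.44 on the arrays. Its mean of 0.58 ± 0.14 (SE, n = 2) had an adjusted p of 0.260 by limma. Serpinb7 had a mean of -0.29 and Serpinb6d of -0.23. In the other clades, the antithrombin gene Serpinc1 had -0.34, the neuroserpin gene Serpini1 0.18 and Serpinf1 0.05, with none past the threshold among 5 tested.

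The 11 other WAP-domain genes tested had a median log2 ratio of -0.05. Wfdc17 had the largest difference, with a mean of -0.45, ahead of Wfdc18 at -0.20 and Wfikkn1 at -0.19. Among 6 cystatins, Csta2 had 0.42 from -0.10 and 0.94 on the arrays, and Cst3, the secreted cystatin C, had -0.34 from -0.47 and -0.22 (limma adjusted p 0.505). Cst10 had -0.10. Of 9 other inhibitors, the membrane-bound Kunitz inhibitor Spint2 had -0.43 from -0.92 and 0.06. Reck had -0.29 from -0.006 and -0.58, and Spink10 had -0.28. Among these named genes, Wfikkn1, Cst10, Reck and Spink10 were the dimmest. They were above background in the wild-type on both arrays but in the knock-out on 1 array only.

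**Figure D4:**
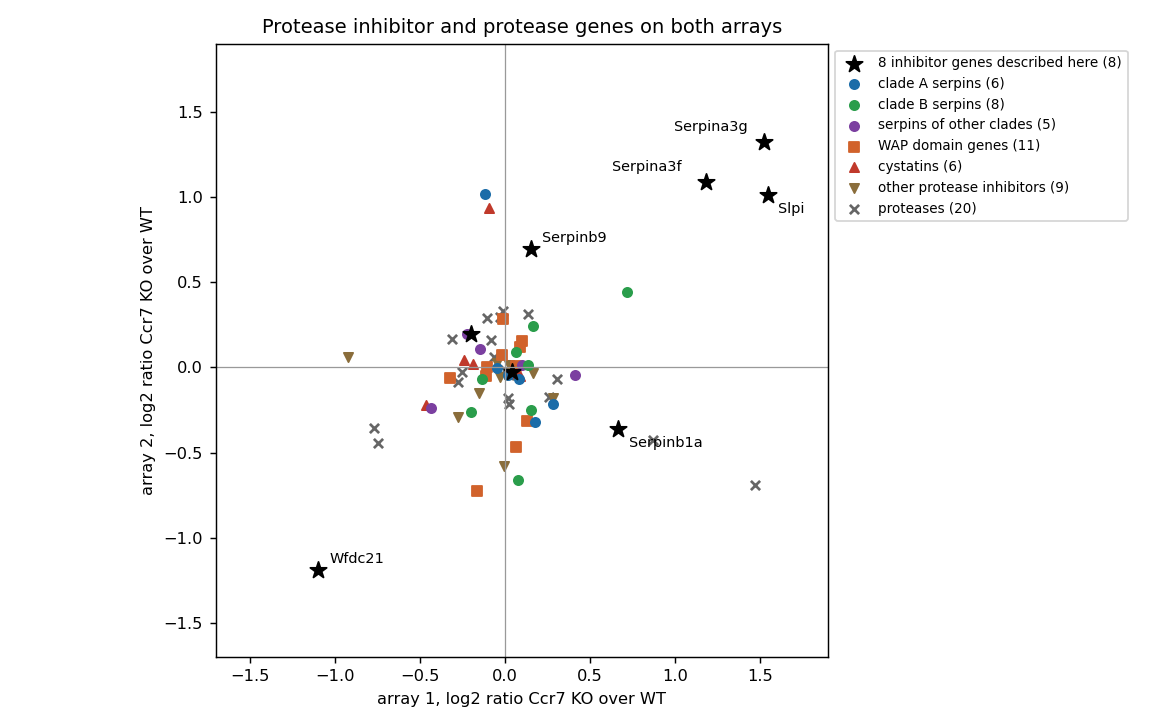
Log2 ratios, knock-out over wild-type, of array 1 (horizontal axis) and array 2 (vertical axis) for the 8 genes (stars), the 45 other inhibitor genes tested and 20 proteases. Serpina3g, Serpina3f and Slpi lie in the upper right corner and Wfdc21 in the lower left, and among the other inhibitor genes Serpinb6b, at 0.72 and 0.44, lies farthest to the upper right.

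Proteases were tested in the same fit, most of them serine or cysteine proteases, the classes that serpins, WAP-domain proteins and cystatins act on. Of 30 listed, 20 passed the filter, and none passed an adjusted p of 0.05, where 0.102% of all genes did. At an unadjusted p of 0.05, 2 were lower and 0 higher, against 9.12% of all genes in either direction. The median log2 ratio of the 20 was 0.01. Ctse, cathepsin E, is an aspartic protease and so outside those classes. It had -0.75 and -0.44 on the arrays, a mean of -0.60 ± 0.14 (SE, n = 2) with an adjusted p of 0.255 by limma. Ctsw, a cathepsin of cytotoxic lymphocytes, had a mean of -0.56 (adjusted p 0.312 by limma) and was above background in the knock-out on 1 array only. Ctss, the cathepsin that trims the invariant chain in B cells, had 1.47 and -0.69, so the arrays opposed each other on a scaled-up spot. Chosen as known targets after their values were seen, the cysteine cathepsin Ctsb had -0.06 and 0.06 on the arrays, Ctsl 0.02 and -0.18, and the neutrophil protease Ctsg values within 0.02 of 0.

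Among genes with a proper symbol, those with the most similar pair of ratios were named for 4 of the inhibitor genes. Genes known only by clone-type or predicted names were left out. Over 2 arrays, Parm1 was nearest to Serpina3g (distance 0.12 on the log2 scale), followed by Nfil3 and Samsn1 (both 0.29). Aox4 (0.23), Nfil3 (0.24) and Ddit4 (0.31) were nearest to Serpina3f. Nfil3 (0.14) and Parm1 (0.22) were nearest to Slpi. Galnt14 (0.04), H2bc4 (0.09) and Upb1 (0.14) were nearest to Wfdc21. The likeness rests on 2 arrays and is given as a description.

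The sorted pools carried the B-cell genes, and Ms4a1, Cd79a and Cd79b were above background in both genotypes on both arrays. Summed over the 10 B-cell markers, normalized intensity was 573243 and 379918 in knock-out pools, against 351789 and 565501 in wild-type pools, and the largest differences were -0.82 for Pax5 and 0.30 for Cd22. Ms4a1 had 1.75 and -1.23 on the arrays and Cd79b 1.45 and -1.52, on scaled-up spots like those of Serpina3g and Serpinb1a. Ccr7 itself had log2 ratios of -1.11 and -0.74 (limma adjusted p 0.142), and whether its probe lies in the deleted part is not known here. From 58.4% to 68.8% of spots were well above background in a channel.

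Slpi and Serpinb1a are also made by myeloid cells, so markers of those cells are given beside them. Of 10 neutrophil markers 2 were tested, S100a9 with a mean log2 ratio of 0.46 from 0.92 and 0.00, and Mpo with -0.10. The 8 others, among them S100a8, Ly6g and Camp, were not tested, and 1 of the 10 was not found by name among the probes. The sum over both was 349 and 221 in knock-out pools, against 259 and 234 in wild-type pools. Of 10 macrophage and dendritic cell markers 9 were tested, with 2 higher and 1 lower on both arrays. Over all genes, 24.2% were higher and 30.0% lower on both. The sum over the 9 was 10381 and 7604 in knock-out pools, against 5888 and 10715 in wild-type pools. Without Lyz2, the brightest, the sum was 2566 and 2658 in knock-out pools, against 2541 and 3228 in wild-type pools. Adgre1 had -0.71 and Lyz2 0.31. The part of these cells in the Slpi and Wfdc21 ratios was not tested.

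Of 12 T and NK cell markers 10 were tested, with 1 higher and 7 lower on both arrays, Thy1 at -0.78 and Cd3d at -0.60. None passed an adjusted p of 0.05 by limma, and 5 were lower at an unadjusted p of 0.05, as were 1056 of all 17683 genes. Over all genes, 24.2% were higher on both arrays and 30.0% were lower on both. The sum of the T and NK cell markers was 13466 and 9880 in knock-out pools, against 12092 and 9796 in wild-type pools. Most of it came from Lck, which was higher on both arrays. Without Lck the sum was 1584 and 1477 in knock-out pools, against 1917 and 1973 in wild-type pools. Of 6 plasma cell markers 5 were tested. Jchain, the joining chain of secreted antibody, rose with 1.81 ± 0.13 (SE, n = 2, limma adjusted p 0.0178). That call was lost in 7 of 12 other processing settings, in which its limma adjusted p ran from 0.000139 to 1 and its log2 ratio from 1.33 to 1.98. Xbp1 had 0.70 and Sdc1 -0.64. By gene, 2 of the 5 were higher on both arrays, 2 were lower on both and 1 had opposite signs, with a median log2 ratio of -0.21. The plasma cell sum was 8715 and 14199 in knock-out pools, against 7395 and 8945 in wild-type pools. Without Xbp1, the brightest, it was 4702 and 5733 in knock-out pools, against 4658 and 4256 in wild-type pools. Of 8 stromal and endothelial markers tested, Col1a2 had 0.39, and Cxcl12 had 0.52 (limma adjusted p 0.298). Neither wild-type pool was well above background for Cxcl12, so the size of its ratio is uncertain. The stromal sum was 2763 and 3104 in knock-out pools, against 2773 and 3182 in wild-type pools. Most of it came from Pecam1, and without Pecam1 it was 898 and 944 in knock-out pools, against 767 and 848 in wild-type pools. By gene, 4 of the 8 were higher on both arrays (24.2% of all genes), 2 were lower on both (30.0%) and 2 had opposite signs (45.8%). None passed an adjusted p of 0.05 by limma, and 2 were higher at an unadjusted p of 0.05, as were 557 of all 17683 genes. What these cells add to the ratios of the inhibitor genes was not tested.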

How the data were processed

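The deposited intensity values are scanner output of 2 two-colour arrays. Agilent Feature Extraction 9.5.3.1 made them, per the submitters' processing notes, and the file headers record 2 scans of each array at different gain and probe positions on mm8. Per the file headers, that program also wrote a log10 ratio (Cy5 over Cy3) after subtracting background and normalizing the dyes. The authors' deposited value table holds log2 ratios. Its direction and scale were settled against the scanner files: it equalled the knock-out over wild-type ratio within 0.001 at 42512 and 42515 of 43379 spots, its medians were 0, and the making of the other values is not stated in the labels or headers.

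Background was corrected with normexp (offset 50, which shrinks ratios of dim probes) and ratios were loess-normalized (span 0.3, 4 iterations) in limma 3.58.1 under R 4.3.3, with control spots at weight 0 and outlier spots left out. Levels per genotype are log2 intensities after loess and Aquantile scaling. A probe was kept where 1 genotype was well above background on both arrays, and the brightest probe stood for a gene. Probes were named by RefSeq accession, symbol or synonym (33102 of 41174). Promoter sequences are from RefSeq, GRCm38.p6.

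The fit (lmFit, eBayes) took the ratios turned to knock-out over wild-type, and had 1 residual and 6.19 prior degrees of freedom. Two-sided p-values were adjusted by the Benjamini-Hochberg method over all genes. The p-values and each SE rest on a variance moderated towards that of all genes. With 2 arrays the residual holds the difference between pool pairs and any dye effect. Neither the p-values nor the SE measure the spread between animals. The code of the fit was checked on simulated ratios drawn from its own fitted variance, which says nothing of dye or pool effects. The 8 genes, the lists and the alternatives were chosen with earlier results of these data known. The rule for named genes took every probe of the 8 genes, the 3 largest mean differences of each family and protease list where none passed, the 2 largest of each marker list, and the 3 nearest genes of 4 inhibitor genes, of which 1 is not reported here. Precision is limited by there being 2 arrays.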

Additional observations from a re-analysis of the deposited data

How the results depend on the processing

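With 2 arrays, leaving 1 out allows no test. The ratios of the single arrays ran from 1.32 to 1.52 for Serpina3g, from 1.09 to 1.18 for Serpina3f, from 1.01 to 1.54 for Slpi and from -1.19 to -1.10 for Wfdc21. Over the other settings the mean ratio ran from 0.93 to 1.43 for Serpina3g (11 settings), from 0.71 to 1.31 for Serpina3f, from 0.91 to 1.61 for Slpi, from 0.15 to 0.70 for Serpinb9 and from -2.01 to -1.04 for Wfdc21 (12 settings each). The ratios themselves differ from the main ones in only 6 (Serpina3g, Slpi, Wfdc21) or 7 (Serpina3f, Serpinb9) of these settings, and the scanner program's ratio and the deposited table are nearly the same values. In those 6 or 7 the genes kept their direction on both arrays, except Serpina3g with no within-array normalization. Serpina3g and Serpinb1a have no value without scaled-up probes. The median of all genes was -0.17 under median centring and -0.39 when arrays were not normalized within themselves, so ratios there stand against a shifted centre. The count of 18 genes past the threshold was 0 on the deposited value table, on the scanner program's log ratio, with no within-array normalization, with the mean of probes and without background subtraction. It was also 0 with separate channels and no replicate block, the only unpaired fit. It was 4 with median centring, 9 with both channels above background, 78 with an intensity trend and robust prior and 130 without scaled-up probes. The counts of other inhibitor genes and of proteases past the threshold were 0 in each of 12 other settings, with smallest adjusted p (limma) from 0.0839 to 1 and from 0.0779 to 1.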
